A study of Danio rerio with 2 samples.

Results

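The nucleolar ribosome assembly factors were followed in gata1-EGFP-positive cells sorted from zebrafish embryos at 22 hours post fertilization. Members were the genes of the deposited expression table whose names match the standard symbols of these factors (the utp, nop, nol, noc, rrp, tsr and polr1 series, the snoRNP proteins, nucleolin, nucleophosmin and others). The rule uses names only and no measured value. It took 67 of the 32105 genes of the table, and the pattern for *tcof1* matched no row.

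Ribosomes are built in the nucleolus. RNA polymerase I makes a long precursor rRNA there, small nucleolar RNPs (snoRNPs) modify it, and a large set of assembly factors folds and cuts it while ribosomal proteins join. The small subunit forms first, within a particle called the small subunit processome, and the large subunit matures on a separate path before both are exported to the cytoplasm. Red cell precursors depend on this machinery, since inherited faults in ribosomal proteins and in some assembly factors, TSR2 among them, cause anemia in humans. Roles given below are those known from budding yeast and human cells unless stated otherwise.

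The study compared 1 library from *add1* knockout embryos with 1 library from siblings labelled wildtype. *add1* encodes adducin 1, a membrane skeleton protein that links spectrin with actin. Both groups carried the gata1-EGFP marker, which labels cells using the promoter of the red cell transcription factor gene *gata1a*, and erythroblast is the cell type on the labels. The comparison asked how loss of *add1* alters the transcriptome before the number of red cells differs visibly. The labels do not give the number of embryos behind a library.

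The mutant library held 5956344 counts and the sibling library 6157792. *add1* itself had 18 counts in mutant cells and 1166 in sibling cells, so it was 62.7-fold lower (39.5 to 106). Levels are given as CPM, counts per 1000000 counts of the library, and ranges in parentheses are exact 95% counting intervals of the ratio. Read counting is the 1 source of error in them, and those of ratios between counts of different genes are approximate. With 1 library per genotype there is no replicate check and no test across embryos, so genotype cannot be told apart from differences between the 2 preparations, and in sorted bulk cells fewer cells of a type cannot be told apart from less RNA per cell. The labelled cell type was present in both libraries: the 11 erythroid markers examined were all detected, but all 11 were lower in the mutant library, with a summed level of 33544 against 70320 CPM. Markers of several other cell types were higher there. The 9 skeletal muscle markers summed to 11055 against 3315 CPM and the 10 hatching gland and notochord rows, of which each library had 1 at 0, to 3292 against 186 CPM. The 9 muscle markers, the 8 measured of the hatching gland and notochord list, the 8 of epidermis (2787 against 1706 CPM) and the 4 measured neural markers were each higher. All 10 neural rows summed to 334 against 123 CPM. Of 10 myeloid markers 4 were higher (1004 against 1185 CPM in sum), and of 6 measured endothelial markers 5, beside 60.8% of all measured genes. All 8 endothelial rows summed to 199 against 147 CPM. *isl1*, *cmn*, *col2a1a*, *col8a1a*, *agr1*, *egfl7* and *etv2* reached the minimum of 10 CPM, set below, in the mutant library only. *npsn*, a lower myeloid marker, reached it in the sibling library only, so these calls rest partly on that filter. The part of this mixture in the results below was not tested.

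Most assembly factors were slightly higher in the mutant library, and a pair was far lower. Ratios were read for genes with at least 10 CPM in at least 1 of the libraries, called measured genes below, and 64 of the 67 members were among them. By log2 ratio of CPM + 1, mutant over sibling, 55 of the 64 were higher and 9 lower, beside 60.8% and 39.2% of all 9672 measured genes. The median log2 ratio was 0.29 for the members and 0.13 for all measured genes, a difference of 0.15. Differences were small: 0 of the 64 members were at least 2-fold higher, a mark that 10.1% of all genes passed, and 1 was at least 2-fold lower, beside 2.56% of all genes. At 1.5-fold, 5 members were higher and 1 lower, beside 21.5% and 8.17% of all genes. Most members thus lay within 1.5-fold of equal levels, and the share past either mark upward was below that of all genes. Their counting intervals lay above 1 for 46 members and below 1 for 4, beside 40.0% and 21.9% of all genes. With TMM or with median-of-ratios factors they lay above 1 for 26 and below 1 for 12, beside 26.1% and 36.0% of all genes with TMM. Intervals narrow with depth, and 59 of the 64 members but 4254 of the 9672 genes were at 50 CPM or more. Shares of interval calls at matched abundance were not computed. Among the more abundant genes, those at 50 CPM or more, 51 of 59 members were higher, beside 54.2% of 4254 genes, and the medians were 0.29 and 0.05. At this level 3 members (*heatr1*, *utp3* and *ebna1bp2*) were at least 1.5-fold higher, beside 13.7% of genes.

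The direction of small ratios rested on the scaling. TMM factors, which centre the bulk of genes, moved log2 ratios down by 0.20 and the median of all genes from 0.13 to -0.08. Under this scaling 43 of 64 members were higher, beside 43.9% of all genes, and the medians were 0.08 for the members and -0.08 for all genes. The distance between members and all genes was thus 0.16, against 0.15 by library totals. With median-of-ratios factors 43 members were again higher, beside 44.0% of genes, and with totals that leave out globin, mitochondrial and ribosomal protein genes 48 were, beside 52.0%. Over the 4 scalings, 43 members were higher and 9 lower under each, and 12 changed direction. The 43 match the count with TMM alone, where 43.9% of all genes were higher. The 9 match the count by library totals, where 39.2% of all genes were lower. The counting interval lay above 1 under each of the 4 for 26 members and below 1 for 4, *bxdc2*, *ncl*, *gnl3* and *nop56*. The 26 match the count with TMM alone, where 26.1% of all genes had such an interval. The 4 match the count by library totals, where 21.9% of all genes did.

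**Figure D1:**
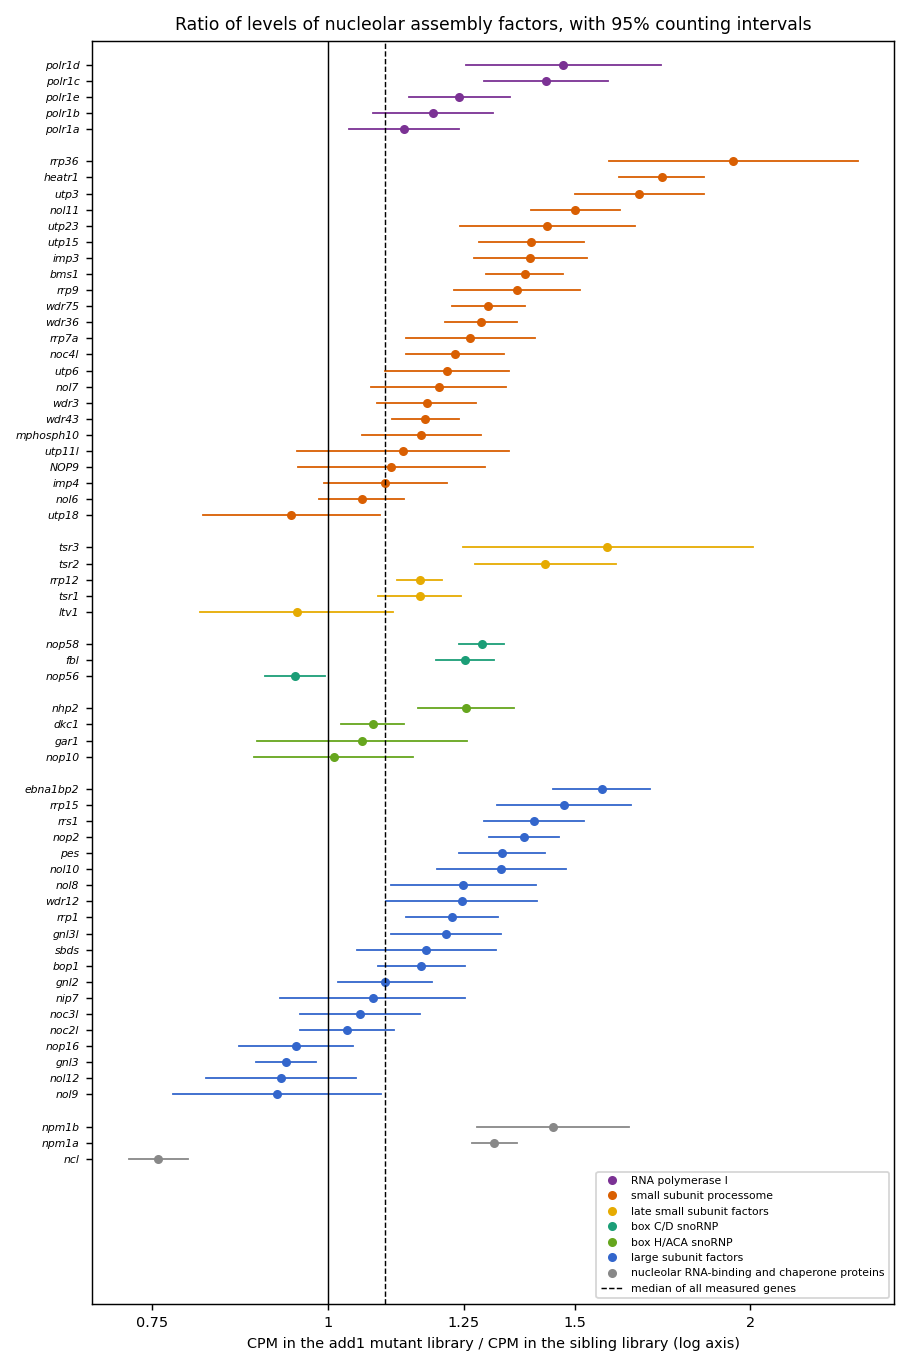
CPM in the mutant library divided by CPM in the sibling library (log axis) for the 63 measured members outside the first part of chromosome 21, grouped by role, with exact 95% counting intervals as lines. Most points lie between 1 and 1.5, the highest is rrp36 at 1.94 and the lowest is ncl at 0.757; the dashed line marks the median of all measured genes.

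The 2 members that stood far below the rest lie close to the start of chromosome 21, between the chromosome end and *add1*, in a stretch where 43 genes together had 281 counts in mutant cells and 14309 in sibling cells. *bxdc2* (ENSDARG00000098935, chromosome 21, 204899 to 211830, GRCz10) encodes a Brix domain protein needed for large subunit assembly. It had 31 counts in mutant cells and 1246 in sibling cells, or 5.20 against 202 CPM, and was 38.9-fold lower (27.2 to 57.5). It was the 1 member past 2-fold. *NOP14* (ENSDARG00000098859, chromosome 21, 309089 to 332090) encodes a small subunit processome protein that binds Noc4. It had 1 count in mutant cells and 36 in sibling cells, a level 34.8-fold lower (5.86 to 1413), and stayed under the minimum of 10 CPM in both. The other 5 members on this chromosome lie past *add1*. *nop56*, *noc4l*, *nhp2*, *nop16* and *dkc1* had log2 ratios from -0.08 to 0.33. *noc4l*, the gene of the Nop14 partner, was at 223 CPM in mutant cells and 181 CPM in sibling cells.

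**Figure D2:**
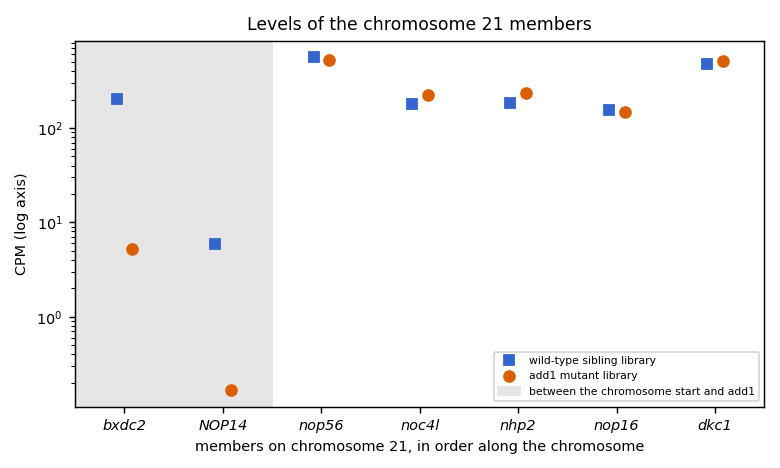
CPM (log axis) of the 7 members on chromosome 21 in the mutant (circles) and the sibling library (squares), in their order along the chromosome. bxdc2 and NOP14, in the shaded first part that ends with add1, lie far apart between the libraries (5.20 against 202 CPM and 0.168 against 5.85 CPM), and the other 5 lie close together.

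RNA polymerase I transcribes the rRNA precursor. The 5 members that encode its subunits were higher by library totals, beside 60.8% of all measured genes, with a median log2 ratio of 0.31. The largest subunit gene *polr1a* was the 1 of them that turned lower with TMM, where 43.9% of all measured genes were higher. *polr1a* was at 169 CPM in mutant cells and 150 CPM in sibling cells, a ratio of 1.13 (1.03 to 1.24). *polr1b*, the second largest subunit, was at 147 against 123 CPM, and *polr1e* at 212 against 171 CPM. The genes of the subunits that polymerases I and III share lay above *polr1a*, *polr1b* and *polr1e*. *polr1c* was at 152 against 106 CPM, a ratio of 1.43 (1.29 to 1.58), and *polr1d* at 63.8 against 43.4 CPM, a ratio of 1.47 (1.25 to 1.73). *polr1c* and *polr1d* together had 0.408 counts for each count of *polr1a*, *polr1b* and *polr1e* in mutant cells and 0.336 in sibling cells. This ratio is free of the scaling and was 1.21-fold higher in the mutant library (1.097 to 1.338 by counting error). It covers these 5 members only. Other polymerase I subunit genes outside the name rule, *znrd1*, *twistnb* and *cd3eap*, had ratios of 1.64, 1.49 and 1.38. These lay near those of *polr1c* and *polr1d*, so the contrast does not extend to polymerase I subunits in general. Of 10 measured genes of the polymerase III core, 8 were higher, beside 60.8% of all genes. The 2 past 2-fold, beside 10.1% of all genes, were *polr3gla* (12.8 against 4.38 CPM) and *polr3k* (21.8 against 10.1 CPM). *polr3gla* reached the minimum of 10 CPM in the mutant library only, so its call rests partly on that filter. The median log2 ratio of this list was 0.35, or 0.28 with 10 CPM required in both libraries and 0.20 with a minimum of 50 CPM.

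The genes listed here as polymerase I partners did not share one direction, and the list also holds the subunit genes *znrd1*, *twistnb* and *cd3eap*. Of 11 measured genes, 6 were higher and 5 lower, beside 60.8% and 39.2% of all measured genes. The median log2 ratio of 0.01 was negative under the other scalings. The subunit genes were all among the 6 higher, and the 5 lower were all partners. *rrn3*, which encodes the initiation factor that recruits the polymerase to rRNA genes, was at 226 against 96.6 CPM, a ratio of 2.34 (2.12 to 2.58). *ubtfl*, named as related to the upstream binding factor of rRNA genes, was 1.73-fold lower, at 53.2 against 92.2 CPM. *ubtf*, the gene of that factor, was at 164 against 222 CPM. *znrd1*, which encodes a small polymerase I subunit, was at 25.5 against 15.6 CPM.

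The small subunit processome held the 3 highest ratios of all measured members, those of *rrp36*, *heatr1* and *utp3*. Of the 24 members grouped here 23 were measured (*NOP14* was not), and *nol10* was counted with the large subunit factors below. Of the 23, 22 were higher, beside 60.8% of all measured genes, and the median log2 ratio was 0.33, or 0.13 with TMM. By library totals, counting intervals lay above 1 for 18 of the 23 and below 1 for 0, beside 40.0% and 21.9% of all measured genes. These shares were not matched for abundance either. The intervals of *mphosph10*, *noc4l*, *nol7*, *rrp7a*, *utp6*, *wdr3* and *wdr43* did not stay above 1 under each of the other scalings. In direction, 18 of the 23 were higher under each of the 4 scalings, 4 changed and 1 was lower. With TMM alone 43.9% of all measured genes were higher. *rrp36*, needed for early cleavage of the precursor, had 280 counts in mutant cells and 149 in sibling cells, or 47.0 against 24.2 CPM, and at 1.94 (1.59 to 2.39) the highest ratio of any measured member. *heatr1*, a large scaffold protein that in zebrafish is known from a mutant with loss of neural cells, was at 362 CPM in mutant cells and 209 CPM in sibling cells, a ratio of 1.73 (1.61 to 1.85). *utp3*, which encodes a processome component, was at 154 against 92.4 CPM, a ratio of 1.67 (1.499 to 1.853). These 3 were the processome members past 1.5-fold on the CPM + 1 scale, where *nol11* at 0.58 on the log2 scale lay just under it, and none overlaps another gene of 10 or more counts. *bms1*, a GTPase of the processome, was at 384 against 278 CPM, a ratio of 1.38 (1.30 to 1.47). *wdr36*, *rrp9*, a protein of the snoRNP that guides early cleavage, and *utp23*, a factor of early rRNA processing, were at 417 against 324, 146 against 107 and 77.2 against 53.9 CPM, with intervals above 1 under each scaling. Lower ratios were those of *nol6* (272 against 258 CPM), *NOP9* (58.9 against 53.1 CPM) and *utp11l* (46.8 against 41.4 CPM), whose intervals held 1 and whose direction turned with TMM. *nol7*, *rrp7a*, *utp6* and *wdr3* lay between these, with ratios from 1.18 to 1.26. At the low end, *utp18* was at 60.3 against 64.0 CPM, and its span overlaps the much more abundant proteasome gene *psmd3*.

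The processome is assembled from modules, and its members were split by these after their values had been seen. The UtpA module binds the start of the precursor and is needed for its transcription. It was read here from the members *heatr1*, *nol11*, *utp15*, *wdr75* and *wdr43* and from *cirh1a*, which the name rule does not take. All 6 were higher, beside 60.8% of all measured genes, with ratios from 1.17 for *wdr43* upward by library totals. With TMM the ratio of *wdr43* was 1.02. The summed level of the module was 1.39-fold higher by library totals (1.36 to 1.43). Within it, *nol11* was at 304 against 203 CPM and *utp15* at 209 against 150 CPM, while *wdr43* was at 459 against 391 CPM. Counts of *heatr1* for each count of *wdr43* were 0.789 in mutant cells and 0.535 in sibling cells, a 1.47-fold difference (1.35 to 1.61 by counting error). These 2 had the highest and the lowest ratio of the 6. Since the pair was picked from the extremes, its interval cannot decide whether ratios within the module were unequal. The UtpB module (*wdr36*, *utp6*, *wdr3*, *utp18* and the non-members *pwp2h* and *tbl3*) was 1.25-fold higher in sum by library totals (1.21 to 1.29). Of its 6 genes 5 were higher, beside 60.8% of all measured genes. UtpA had 1.37 counts for each UtpB count in mutant cells and 1.23 in sibling cells, a difference of 1.12-fold (1.07 to 1.16) by counting error. In the Mpp10 complex *imp3* was at 179 against 129 CPM, *mphosph10* at 149 against 127 CPM and *imp4* at 133 against 121 CPM. The interval of *imp4* held 1 and its direction turned with TMM, as for *nol6*, *NOP9* and *utp11l* above. The ratio of *mphosph10* was 1.01 with TMM.

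Factors that act late on the small subunit, partly in the cytoplasm, had a median log2 ratio of 0.22, or 0.02 with TMM. Of the 5, 4 were higher under each of the 4 scalings, beside 43.9% of all measured genes higher with TMM alone. *tsr3*, which modifies the small subunit rRNA, was at 30.6 against 19.3 CPM, a ratio of 1.58 (1.25 to 2.01). Its span overlaps *gnptg*, which had 219 against 128 counts, so the division of reads between them is uncertain. *tsr2*, whose protein escorts a ribosomal protein to the nucleus, was at 119 against 83.3 CPM, a ratio of 1.43 (1.27 to 1.60). *rrp12*, an export factor and 1 of the most abundant members, was at 991 against 852 CPM, a ratio of 1.16 (1.12 to 1.21) that was 1.01 with TMM. *tsr1*, which encodes a GTPase-like factor that holds the late particle, was at 297 against 256 CPM, also 1.16. *ltv1*, a factor of the late particle, was at 51.5 against 54.2 CPM.

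Box C/D particles methylate rRNA and contain fibrillarin, Nop56 and Nop58. *fbl*, the methyltransferase gene, was at 630 CPM in mutant cells and 503 CPM in sibling cells, a ratio of 1.25 (1.19 to 1.31). *nop58* was at 1096 against 852 CPM, a ratio of 1.29 (1.24 to 1.33). *nop56*, which pairs with Nop58 in the particle, was at 530 against 559 CPM, a ratio of 0.948 (0.903 to 0.995). *fbl* and *nop58* were higher and *nop56* lower under each of the 4 scalings. Counts of *nop58* for each count of *nop56* were 2.07 in mutant cells and 1.52 in sibling cells, a scaling-free difference of 1.36-fold (1.28 to 1.44), and for *fbl* the same difference was 1.32-fold (1.23 to 1.41).

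Box H/ACA particles convert uridine in rRNA to pseudouridine, and their core proteins also belong to telomerase in human cells. The median log2 ratio of their 4 genes was 0.09, below that of all measured genes, and it was -0.11 with TMM. *dkc1*, which encodes the pseudouridine synthase dyskerin, was at 511 against 475 CPM, a ratio of 1.08 (1.02 to 1.13). *nop10* was at 77.4 against 76.7 CPM and *gar1* at 45.8 against 43.4 CPM, and both intervals held 1. *nhp2* was the 1 that was higher under each scaling, at 232 against 185 CPM, a ratio of 1.25 (1.16 to 1.36).

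Large subunit factors ranged in both directions. All 21 members grouped here were measured, 16 higher and 5 lower, beside 60.8% and 39.2% of all measured genes. The median log2 ratio was 0.23, or 0.03 with TMM. *ebna1bp2*, whose yeast counterpart acts early in large subunit assembly, was at 260 CPM in mutant cells and 166 CPM in sibling cells, a ratio of 1.57 (1.45 to 1.70), and was the 1 member of this group past 1.5-fold upward. *rrp15* was at 133 against 90.3 CPM, a ratio of 1.47 (1.32 to 1.64). *rrs1*, which helps to load the particle that holds the smallest rRNA of the large subunit, was at 230 against 164 CPM, and *nop2*, an rRNA methyltransferase gene, at 460 against 334 CPM. The lower ones were *bxdc2*, described above, and *gnl3*, *nol9*, *nol12* and *nop16*, all 4 with ratios between 0.921 and 0.949. *gnl3*, which encodes the GTP-binding protein nucleostemin of proliferating cells, was at 525 against 562 CPM, a ratio of 0.934 (0.889 to 0.980). Its paralog *gnl3l* was at 176 against 145 CPM. Near equal levels stood *noc2l* (220 against 214 CPM) and *noc3l* (139 against 132 CPM), whose yeast counterparts escort the large subunit precursor through the nucleolus, together with *nip7* (59.4 against 55.2 CPM) and *gnl2* (225 against 205 CPM), and these 4 turned lower with TMM. *rrp1*, *nol8* and *nol10* had ratios of 1.23, 1.25 and 1.33 and were higher under each scaling, but only the interval of *nol10* stayed above 1 under each. *nol10* was counted in this group, but its yeast counterpart belongs to the small subunit processome. *nol9*, an RNA kinase gene, was at 43.7 against 47.4 CPM, and its interval held 1.

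Pescadillo, Bop1 and Wdr12 form the PeBoW complex, which is needed for processing of the large subunit precursor; pescadillo was first named from a zebrafish mutant. All 3 genes were higher under each scaling, beside 43.9% of all measured genes higher with TMM alone. Only the interval of *pes* stayed above 1 under each scaling. With TMM the ratios of *pes*, *bop1* and *wdr12* were 1.16, 1.01 and 1.08. *pes* was at 305 CPM in mutant cells and 229 CPM in sibling cells, *bop1* at 273 against 234 CPM and *wdr12* at 95.7 against 76.8 CPM. By library totals their ratios were 1.33, 1.17 and 1.25, with intervals that overlap each other. Such overlap does not show that the ratios were equal, and counts of these genes were not set against each other. In sum the 3 genes were 1.25-fold higher by library totals (1.19 to 1.31). *sbds*, the gene of Shwachman-Diamond syndrome in humans, whose protein frees the large subunit from a block to joining, was at 109 against 92.4 CPM, a ratio of 1.18 (1.05 to 1.32), with *dock10* overlapping its span.

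The abundant nucleolar proteins that are not confined to one step pointed in opposite directions. *npm1a*, 1 of 2 zebrafish nucleophosmin genes, was at 1111 CPM in mutant cells and 845 CPM in sibling cells, a ratio of 1.31 (1.27 to 1.36). *npm1b* was at 103 against 71.3 CPM, a ratio of 1.45 (1.28 to 1.64), and counts of *npm1a* for each count of *npm1b* were 10.8 and 11.9, a difference whose interval held 1. *ncl*, which encodes nucleolin, an RNA-binding protein of rRNA transcription and processing, was at 474 against 627 CPM and 1.32-fold lower (1.26 to 1.39), the lowest ratio of a measured member outside the first part of chromosome 21. It was lower under each scaling. Counts of *npm1a* for each count of *ncl* were 2.34 in mutant cells and 1.35 in sibling cells, a 1.74-fold difference (1.63 to 1.84).

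**Figure D3:**
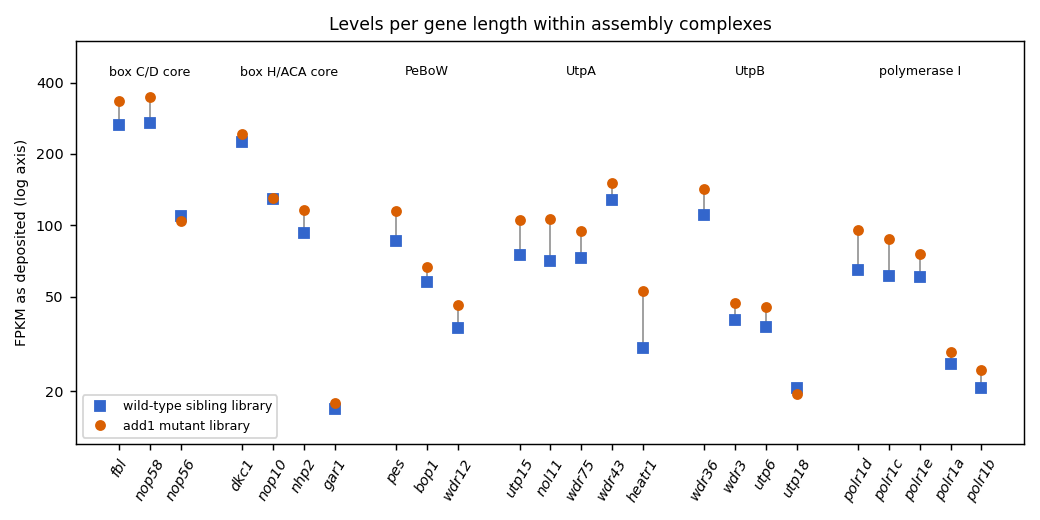
Deposited FPKM (fragments scaled by gene length and library size, log axis) of members in 6 complexes, in the mutant (circles) and sibling (squares) libraries. In the box C/D core fbl and nop58 are higher and nop56 is lower in the mutant library; gar1 stands lowest in the box H/ACA core, and polr1a and polr1b stand below polr1c, polr1d and polr1e in both libraries.

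Levels per gene length, as the deposited FPKM, kept nearly the same order in both libraries. *nop58* stood highest by mean FPKM (347 in mutant cells and 269 in sibling cells), then *fbl* (333 and 266), *npm1a* (289 and 220), *gnl3* (242 and 259), *dkc1* (242 and 225) and *rrp12* (192 and 165). Neighbours in this order cannot be separated without replicates. Among proteins of 1 particle, levels were unequal: *gar1* was at 17.9 and 16.9 FPKM, while *dkc1*, *nop10* and *nhp2* lay between 92.7 and 242. Over the 64 measured members Spearman's rho between the 2 libraries was 0.94, and over the 63 outside the stretch the log2 ratio hardly followed the mean FPKM (rho 0.08). Both values describe genes of the same 2 libraries.

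*nol4la* and *nol4lb*, which the name rule also takes, are not known as ribosome assembly factors. They had 35 against 5 and 32 against 11 counts and did not reach the minimum.

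Other genes of the pathway were read from lists outside the name rule, with directions by library totals. Of 22 genes listed as further small subunit factors, 21 were higher and 7 passed 1.5-fold upward, beside 60.8% and 21.5% of all measured genes. Their median log2 ratio was 0.43, or 0.23 with TMM. The 7 include *sdad1* (183 against 119 CPM), whose yeast counterpart acts on the large subunit, so this list is not purely of small subunit factors. *riok2*, a kinase gene of late small subunit maturation, was at 97.2 against 49.9 CPM, *aatf* at 179 against 109 CPM and *emg1*, an rRNA methyltransferase gene, at 104 against 65.4 CPM. Of 32 further large subunit factors, 26 were higher and 6 lower, with a median of 0.27, or 0.07 with TMM. Past 1.5-fold, 1 was higher, *ppan* (105 against 67.2 CPM), and 1 lower, *senp3a* (35 against 68 counts, 1.88-fold lower). *senp3a* reached the minimum of 10 CPM in the sibling library only, so its call rests partly on that filter. Under 1.5-fold lay *eif6*, which keeps the subunits apart, at 277 against 187 CPM. RNA helicases of ribosome assembly were higher in 13 of 16 cases, 1 past 1.5-fold, with a median of 0.17 that was -0.03 with TMM. All 15 measured genes of the RNA exosome, which trims rRNA precursors, were higher, 3 of them past 1.5-fold, with a median of 0.39, or 0.19 with TMM, *exosc7* at 68.0 against 39.1 CPM. None of these 4 lists had a member past 2-fold in either direction.

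The ribosomal proteins themselves lay on the other side. Of 78 measured cytosolic ribosomal protein genes 70 were lower, beside 39.2% of all genes, with a median log2 ratio of -0.30, or -0.50 with TMM, against 0.29 and 0.08 for the assembly factors. The members' share of all counts was 1.57% in mutant cells and 1.33% in sibling cells, a summed level 1.18-fold higher (1.17 to 1.19), or 1.03-fold with TMM. Set against the ribosomal proteins, which needs no scaling, the members had 0.883 counts for each ribosomal protein count in mutant cells and 0.645 in sibling cells. This was a 1.37-fold difference (1.35 to 1.39 by counting error), and 1.39-fold without the genes in the first part of chromosome 21. The ribosomal protein sum includes 1 row of *rps27.2* that went against this difference, with 8568 of the 106035 counts in mutant cells and 1144 of 126908 in sibling cells. Leaving that row out, which was not done, would make the difference larger. Mitochondrial ribosomal proteins, whose ribosomes are built elsewhere, had a median of 0.16, or -0.04 with TMM, close to that of all genes on either scale. Erythroid markers were lower and muscle and hatching gland markers higher in the same mutant library, with the summed levels given above, and their part in this difference was not tested.

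**Figure D4:**
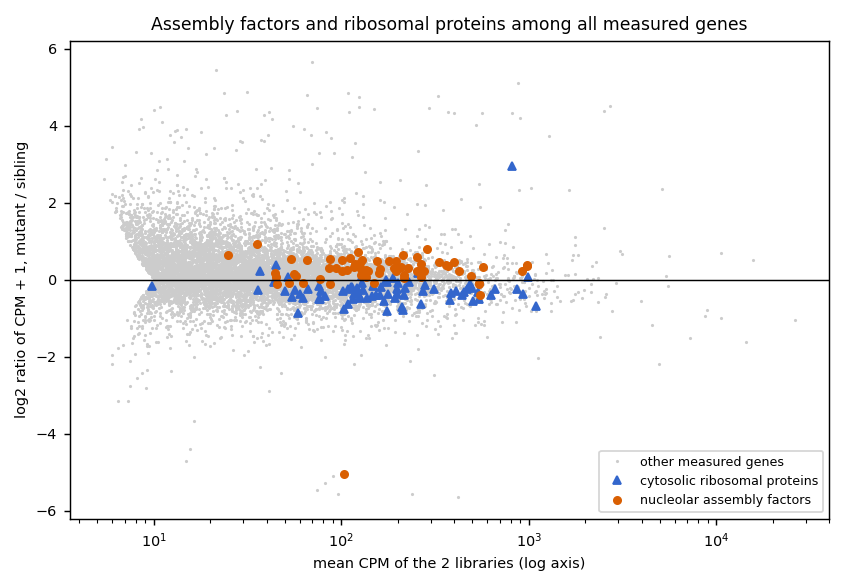
Log2 ratio of CPM + 1, mutant over sibling, against mean CPM (log axis) for all 9672 measured genes (grey), the cytosolic ribosomal proteins (triangles) and the nucleolar assembly factors (circles). By library totals most assembly factors lie above 0 and most ribosomal proteins below it; the circle near -5 is bxdc2 and the triangle near 3 is 1 row of rps27.2.

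**Figure D5:**
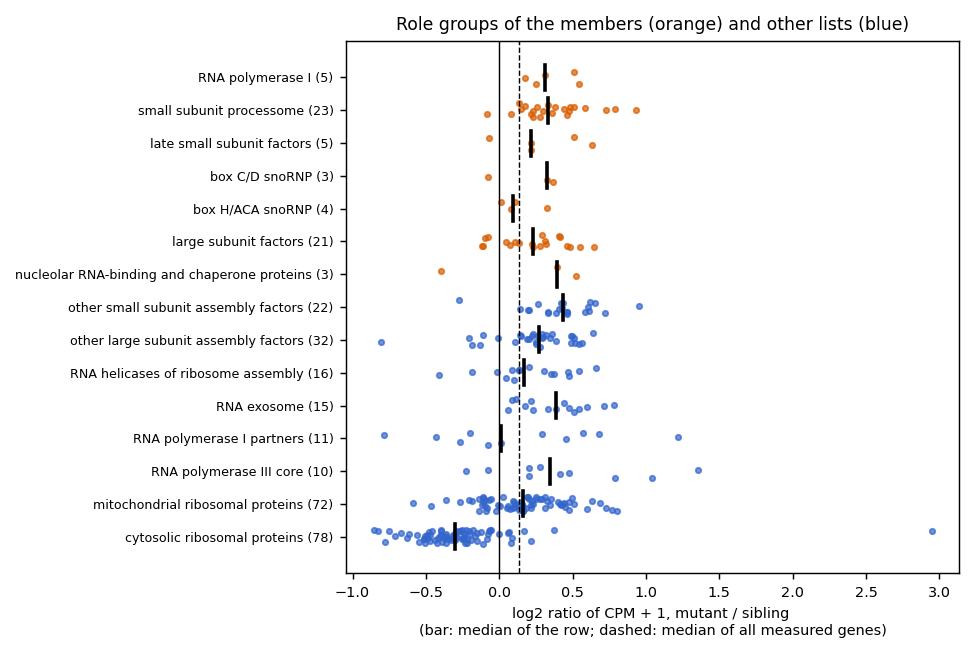
Log2 ratios of CPM + 1, mutant over sibling, for each measured gene of the members' role groups (orange) and of other lists (blue), with the number of genes in brackets, black bars at the medians and bxdc2 (-5.03) left off the scale. Medians run from 0.09 for box H/ACA to 0.39 for the RNA-binding and chaperone group among the members, and the cytosolic ribosomal proteins lie at -0.30.

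Genes of the Myc family, whose proteins are known to drive transcription of assembly factors, were read for their levels. Of 7 measured genes of the family and its partners, 5 were higher, a share near the 60.8% of all genes, and 4 passed 1.5-fold upward, beside 21.5%. These 4 were the *myc* genes *mycb* (415 against 236 CPM), *mycn* (92.5 against 53.9 CPM), *mych* and *myca*. The partner gene *max* was at 168 against 144 CPM, and the lower genes were the partners *mxi1* (102 against 109 CPM) and *mxd3*. *mych* was at 300.0 against 155 CPM, a ratio of 1.93 (1.79 to 2.09), and *myca* at 14.6 against 4.87 CPM. *mxd3*, a gene of an opposing partner, was at 3.69 against 14.6 CPM. *myca* reached the minimum of 10 CPM in the mutant library only and *mxd3* in the sibling library only, so both calls rest partly on that filter. Markers of several other cell types, given above, were also higher in this library, and which cells these transcripts came from was not tested.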

How the data were processed

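Sorted gata1-EGFP-positive cells gave RNA through the SMART-Seq HT kit, and sequencing used a BGISEQ-500, both per the labels' protocols. The submitters' processing notes name the build as GRCz10. Aligner, counter, strand setting and read filters: not given in the sources used here. Raw counts per gene and FPKM were deposited by the authors, with 1 library per genotype. No molecular identifiers are recorded, so PCR copies count as reads and intervals cover counting error only. Reads of overlapping genes cannot be told apart without a known strand setting, and 18 of the 67 members overlap another gene of 10 or more counts.

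Counts were divided by library totals. The minimum was 10 CPM in the higher library (59.6 mutant or 61.6 sibling counts), the pseudocount 1. Intervals are exact (Clopper-Pearson) at 95%; those of ratios between 2 genes or gene sums use the normal approximation on the log scale. TMM factors (edgeR 4.0.16, R 4.3.3, scaling only) were 1.07 and 0.932. The 2-fold rule and the intervals were run on simulated counts with counting error only and planted 4-fold changes. The intervals assume that same error, so this checks the calculation alone. It does not cover PCR copies, differences between preparations or changes under 2-fold. Members and lists were chosen with earlier results of these data known. By the naming rule, values are given for members past 2-fold, the 6 highest by FPKM, up to 3 per role group with the largest ratios, and a set list of 20 symbols. The rule also allowed up to 3 genes per list with the largest ratios. These were not given for every list, and no helicase or mitochondrial ribosomal protein gene is named. The other members and list genes named, and the split into modules, were chosen after their values were seen. Alternatives were 3 other scalings, pseudocounts of 0.1 and 5, minimums of 1 and 50 CPM, none, or 10 CPM in both libraries, 1.5-fold and 4-fold rules, counting intervals and FPKM. Promoter motifs and sequences were not analysed here.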

Additional observations from a re-analysis of the deposited data

How the results depend on the processing

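No paired analysis was possible because each genotype had 1 library, and for the same reason no library could be left out. Counts of members at least 2-fold higher (0) or lower (1) became 2 and 2 with a minimum of 1 CPM or none, which takes in *nol4la*, *nol4lb* and *NOP14*; 5 higher at 1.5-fold; 46 and 4 by counting intervals; and 0 lower with 10 CPM in both libraries or without the first part of chromosome 21. The number of members higher at all (55) was 43 with TMM and median-of-ratios scaling and 48 with totals that leave out globin, mitochondrial and ribosomal protein genes. The members' median of 0.29 was 0.085 with TMM and 0.087 with median of ratios, and their summed ratio of 1.18 was 1.03, 1.03 and 1.096 under these 3 scalings and 1.20 without the first part of chromosome 21. The distance of their median from that of all genes lay between 0.081 (minimum of 1 CPM) and 0.24 (minimum of 50 CPM) over all alternatives run.

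With TMM and with median of ratios, medians were 0.12 and 0.12 for box C/D, 0.13 and 0.14 for the processome, 0.015 and 0.017 for late small subunit factors, 0.031 and 0.033 for large subunit factors, 0.11 and 0.11 for polymerase I, 0.19 and 0.19 for the RNA-binding and chaperone group, 0.23 and 0.23 for other small subunit factors, 0.072 and 0.074 for other large subunit factors, 0.19 and 0.19 for the exosome, 0.57 and 0.57 for the Myc family and -0.50 and -0.50 for cytosolic ribosomal proteins. Medians that changed sign were box H/ACA (-0.11 and -0.11), helicases (-0.031 and -0.029), mitochondrial ribosomal proteins (-0.037 and -0.035) and polymerase I partners (-0.18 and -0.18). With totals that leave out the abundant classes, box H/ACA was at -0.015, polymerase I partners at -0.094, box C/D at 0.22 and the RNA-binding group at 0.29. Polymerase I partners were at -0.20 with a minimum of 50 CPM and the Myc family at 0.38 with 1 CPM or none. These moves follow from the scaling factors or from which genes were counted. Outside the first part of chromosome 21 every measured member had at least 119 counts in each library.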
